A study of Xenopus laevis with 12 samples.

Results

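Id gene transcripts were measured in 12 single whole embryos of Xenopus laevis, a frog, taken late in gastrulation at stage 11.5. They were followed by the probe sets of a 1-colour Affymetrix array whose annotated gene is id1, id2, id3 or id4 in either homeolog. Xenopus laevis carries many genes as a pair of copies, called homeologs and marked L and S. Of 15491 probe sets tested, 6 belonged to 3 of the 4 Id genes, namely 2 for id2 (id2.L and id2.S), 3 for id3 (1 for id3.S and 2 for id3 with no copy named) and 1 for id4 (id4.S). The table used for names gave 0 probe sets for id1, so that id1 and the L copy of id4 were not analysed here.

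In the study, which set out to find putative Nkx2-5 targets, 6 embryos had received mRNA of Nkx2-5 along with mRNA of GFP, and 6 control embryos had received GFP mRNA alone. Nkx2-5 is a homeodomain transcription factor of heart development, and GFP is a fluorescent marker protein that both groups carried. Injection was made at the 8-cell stage, and each embryo was collected whole and put on an array of its own. The injected blastomere and the amount of mRNA are not given. All embryos belong to 1 labelled experiment, and whether they shared parents is not said, so the p-values cover only the spread from embryo to embryo.

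Id proteins are helix-loop-helix proteins without the basic region that contacts DNA. They pair with E proteins and other basic helix-loop-helix (bHLH) factors and keep them from binding their sites, which delays differentiation into muscle, neurons and other tissues. In many vertebrate cells Id genes are switched on by bone morphogenetic protein (BMP) through Smad proteins, and in the frog gastrula BMP signalling is strongest on the ventral side, in the ectoderm that becomes epidermis.

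In embryos given Nkx2-5 mRNA, id4.S was higher than in embryos given GFP alone, and the other 5 Id probe sets did not pass the test. The id4.S signal was 177 ± 14.2 in Nkx2-5+GFP embryos and 101 ± 37.8 in GFP embryos (SD, n = 6 each). Signals are MAS5 intensities on a linear scale, and tests were made on log2(signal + 16). On that scale id4.S rose by 0.78, a fold of 1.72, with an SE of 0.19 and an adjusted p by limma of 0.0297 over all probe sets. An adjusted p under 0.05 was called changed, so 1 of 6 Id probe sets rose and 0 fell, while of all probe sets 6.38% were called, made up of 3.12% that rose and 3.26% that fell in Nkx2-5+GFP embryos. Set against id2.L within each embryo, both id4.S and id3.S were shifted upward in Nkx2-5+GFP embryos. Against id2.S the shifts were 0.39 and 0.04 and did not pass (exact permutation p = 0.141 and 0.909). The other id3 probe sets against id2.L did not pass either.

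Among the Id probe sets id4.S had the largest difference, and id4 encodes an Id protein known from neural progenitors in mammals. Its signal had a lowest value of 159.7, a median of 175 and a highest value of 195 in Nkx2-5+GFP embryos, against 56.1, 89.7 and 160.5 in GFP embryos. The groups overlapped only through GFP embryo 2, at 160.5, which lay just above Nkx2-5+GFP embryo 1, at 159.7. Of 6 Nkx2-5+GFP embryos, 5 lay above the highest GFP embryo and all 6 lay above the GFP median. Groups without any overlap were found for 0 of the 6 Id probe sets and for 2.99% of all probe sets, 1.57% with Nkx2-5+GFP embryos higher and 1.42% with them lower. For id4.S the exact permutation p, 2-sided, was 0.00433, and the 95% interval of the fold ran from 1.29 to 2.29. The Nkx2-5+GFP embryos lay close together, with an SD of 8.03% of the mean, against 37.5% in GFP embryos. Whether this spread differed was not tested.

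**Figure D1:**
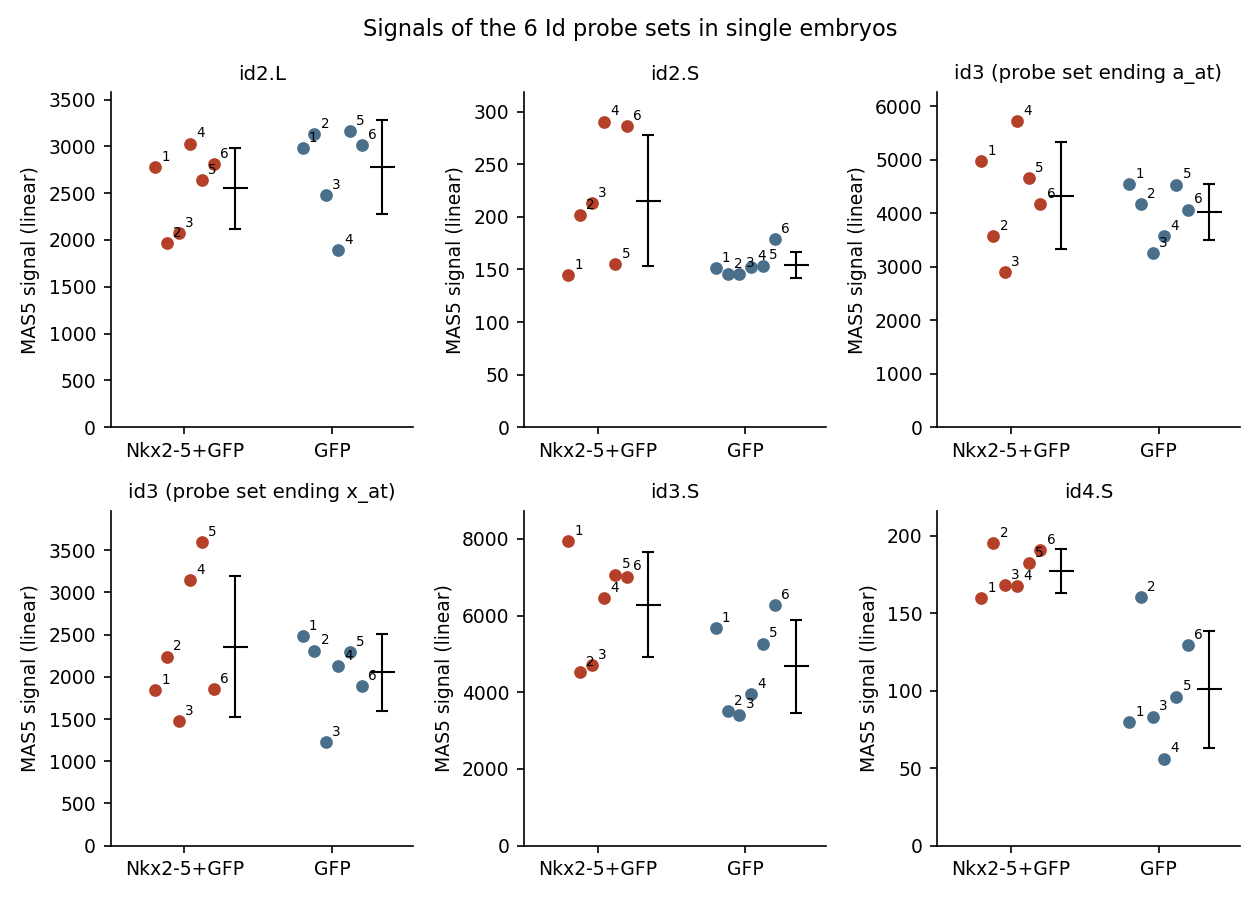
Signal of each Id probe set (vertical axes, linear MAS5 signal from 0) in 6 Nkx2-5+GFP embryos (left, red) and 6 GFP embryos (right, blue), numbered by embryo, with the mean and SD in black. For id4.S the Nkx2-5+GFP embryos lie between 159.7 and 195 and the GFP embryos between 56.1 and 160.5, while for id2.L and the id3 probe sets with no copy named the groups lie at similar heights.

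The size of the id4.S difference changed little when single embryos were left out, while its call often did not hold. The log2 difference lay between 0.66 and 0.91 with 1 embryo left out. The call was lost without Nkx2-5+GFP embryo 1, 2, 4 or 6 and without GFP embryo 1, 3 or 4, where limma's adjusted p reached 0.0699, and it was kept without each of the other 5. In bulk RNA of whole embryos, more cells that express id4 and more id4 RNA per cell cannot be told apart.

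**Figure D2:**
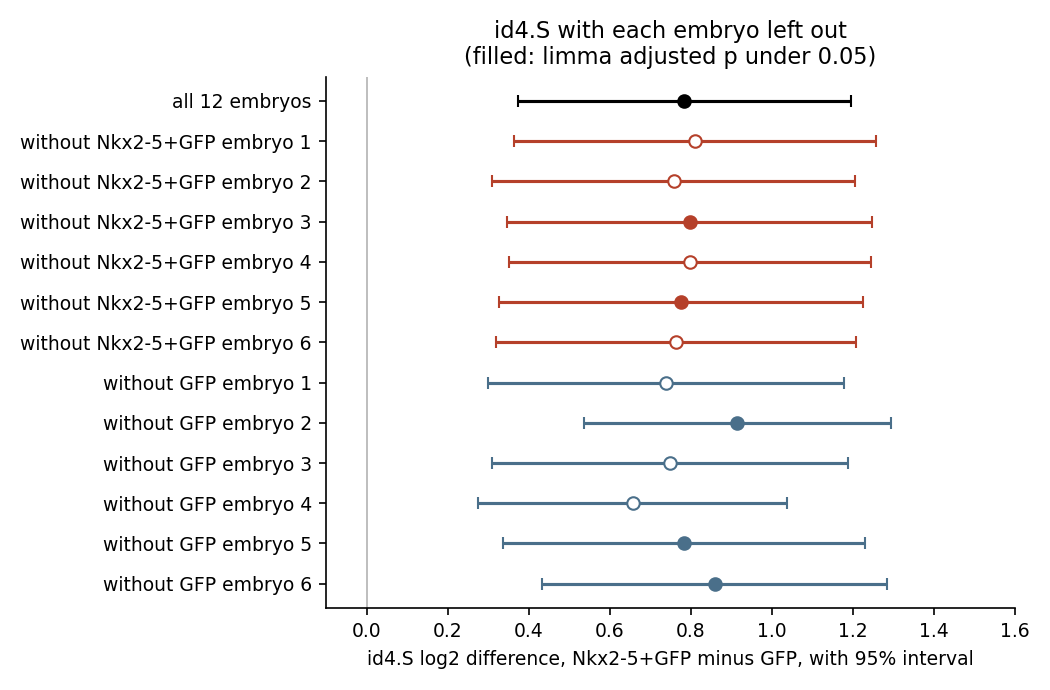
Log2 difference of id4.S, Nkx2-5+GFP minus GFP (horizontal axis, with 95% intervals), for all 12 embryos and with each embryo left out, where filled points have a limma adjusted p under 0.05. The difference stays between 0.66 and 0.91, and 7 of the points with an embryo left out are open.

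The id4.S signal was set against a measure of RNA or labelling quality, and their correlation did not pass. The beta-actin control probe sets of the array give a 3' to 5' signal ratio, which rises when transcripts are shortened. This ratio ranged from 2.68 to 3.33 in Nkx2-5+GFP embryos and from 2.81 to 4.27 in GFP embryos (exact permutation p = 0.154 for the difference). GFP embryos 1 and 4 had the highest ratios, 4.27 and 4.15, and id4.S signals of 79.8 and 56.1. After removal of group means, id4.S and the log2 ratio had a Pearson r of -0.702 and a Spearman rho of -0.594 over 12 embryos (permutation p = 0.0789 and 0.118, adjusted over the 6 Id probe sets 0.474 and 0.353). Within the 6 Nkx2-5+GFP embryos r was 0.592, within the 6 GFP embryos it was -0.837, and without the 2 embryos farthest from the median ratio the pooled r was -0.496. With the ratio in the fit, id4.S differed by 0.56 (limma adjusted p = 0.146), and without GFP embryos 1 and 4 it differed by 0.57 (limma adjusted p = 0.109). For the other 5 Id probe sets the lowest adjusted permutation p for r with this ratio was 0.533, of id2.L and of the x_at probe set of id3.

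**Figure D3:**
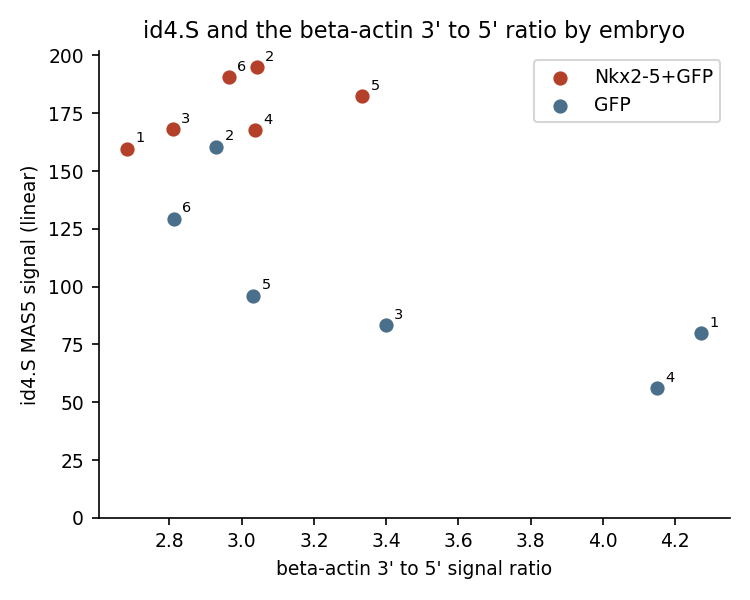
The id4.S signal (vertical axis, linear MAS5 signal) against the beta-actin 3' to 5' signal ratio (horizontal axis) in 6 Nkx2-5+GFP embryos (red) and 6 GFP embryos (blue), numbered by embryo. GFP embryos 1 and 4 stand at the right, at ratios of 4.27 and 4.15, with low id4.S signals, and the Nkx2-5+GFP embryos stand between 2.68 and 3.33.

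id3 is a well-known BMP target gene in frog embryos. The id3.S signal had a lowest value of 4529, a median of 6739.7 and a highest value of 7942 in Nkx2-5+GFP embryos, against 3416, 4606 and 6267 in GFP embryos. Of the Nkx2-5+GFP embryos 4 lay above the highest GFP embryo, and embryos 2 and 3, at 4529 and 4712, lay within the GFP range. The mean signal was 6288 ± 1377 in Nkx2-5+GFP embryos and 4681 ± 1215 in GFP embryos (SD, n = 6 each). This log2 difference of 0.43 did not pass (limma adjusted p = 0.135, exact permutation p = 0.0649), and its 95% interval ran from 0.07 to 0.80.

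The 2 id3 probe sets with no copy named showed smaller differences. The probe set ending in a_at, a suffix for alternative transcripts of a gene, averaged 4332 ± 1007 in Nkx2-5+GFP embryos and 4024 ± 520.0 in GFP embryos (SD, n = 6 each). Its log2 difference was 0.08, with a 95% interval from -0.22 to 0.38 (limma adjusted p = 0.779). The probe set ending in x_at, a suffix for probes that may also match other sequences, averaged 2359 ± 832 in Nkx2-5+GFP embryos and 2055 ± 454 in GFP embryos, a log2 difference of 0.16 with a 95% interval from -0.28 to 0.61 (limma adjusted p = 0.693). Among Nkx2-5+GFP embryos, embryo 4 was the highest in the a_at probe set, at 5717, embryo 5 was the highest in the x_at probe set, at 3592, and embryo 3 was the lowest in both, at 2906 and 1475. In GFP embryos the a_at probe set ranged from 3251 to 4544 and the x_at probe set from 1224 to 2484, so the groups overlapped in both. The id3.S probe set differed between the groups by 0.35 more than the a_at probe set (exact permutation p = 0.039, adjusted over all 15 pairs of Id probe sets 0.117).

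The id2 copies differed in opposite directions, and neither passed the test. id2 encodes an Id protein expressed, among other places, in neural crest and blood-forming tissue of vertebrates. The id2.L signal had a lowest value of 1968, a median of 2708 and a highest value of 3029 in Nkx2-5+GFP embryos, against 1894, 2999.6 and 3163 in GFP embryos, and the groups overlapped almost wholly. Its log2 difference was -0.12, with a 95% interval from -0.41 to 0.17 (limma adjusted p = 0.654), and it was the only Id probe set with a difference below 0.

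The id2.S probe set was dim, below the median of all probe sets, and had a lowest value of 144.9, a median of 207 and a highest value of 290.5 in Nkx2-5+GFP embryos, against 145.4, 152 and 179 in GFP embryos. Nkx2-5+GFP embryos 4 and 6, at 290.5 and 286, lay far above the GFP embryos. Nkx2-5+GFP embryos 2 and 3, at 202 and 213, lay above them as well. Embryo 5, at 155, lay inside the GFP range, and embryo 1, at 144.9, just under it. The log2 difference of 0.40 did not pass (limma adjusted p = 0.168, exact permutation p = 0.0346), with a 95% interval from 0.03 to 0.76. The SD was 29.0% of the mean in Nkx2-5+GFP embryos and 7.97% in GFP embryos.

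Because an effect that passes in 1 gene and not in another need not differ between them, each difference between Id probe sets was taken within each embryo and then compared between the groups. Each of id2, id3 and id4 was entered with the probe set whose mean was highest, which gave id2.L, id3.S and id4.S, and the id2 copies were set against each other, in all 4 pairs. The difference id4.S minus id2.L was shifted upward by 0.90 on the log2 scale in Nkx2-5+GFP embryos relative to GFP embryos (95% interval 0.52 to 1.30), and the groups did not overlap. The difference id3.S minus id2.L was shifted by 0.55 (0.21 to 0.92), again without overlap. Both had an exact permutation p of 0.00216, the smallest that 6 against 6 embryos can give, and 0.00433 adjusted over the 4 pairs.

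These shifts of id4.S and id3.S against id2.L held with each of the 12 embryos left out, with adjusted p up to 0.0173 for both pairs. With another probe set in place of id2.L or id3.S, these shifts were smaller and did not pass. Against id2.L they were 0.20 for the a_at and 0.28 for the x_at probe set of id3 (exact permutation p = 0.104 and 0.284). Against id2.S they were 0.39 for id4.S and 0.04 for id3.S (exact permutation p = 0.141 and 0.909). Without GFP embryos 1 and 4, those of high beta-actin ratio, the shifts were 0.79 for id4.S minus id2.L and 0.68 for id3.S minus id2.L (exact permutation p adjusted over the pairs = 0.00952 for both). The difference id2.S minus id2.L was shifted by 0.52 (0.06 to 0.97, exact permutation p = 0.026, adjusted 0.0346). That call was lost without Nkx2-5+GFP embryo 2, 3, 4 or 6 and without GFP embryo 1, 2, 3, 5 or 6, with adjusted p up to 0.0924, and also over all 15 pairs of the 6 Id probe sets, at an adjusted p of 0.0974. For id4.S minus id3.S the shift of 0.35 did not pass (exact permutation p = 0.255), and its 95% interval, from -0.28 to 0.94, covers differences in either direction. Without GFP embryo 2 this shift was 0.56 and passed (exact permutation p = 0.0281, adjusted over the pairs 0.0375). Against the a_at and x_at probe sets of id3, id4.S was shifted by more, 0.70 and 0.62 (exact permutation p = 0.0195 and 0.0649). Adjusted over all 15 pairs of Id probe sets, these p-values were 0.0974 and 0.162.

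**Figure D4:**
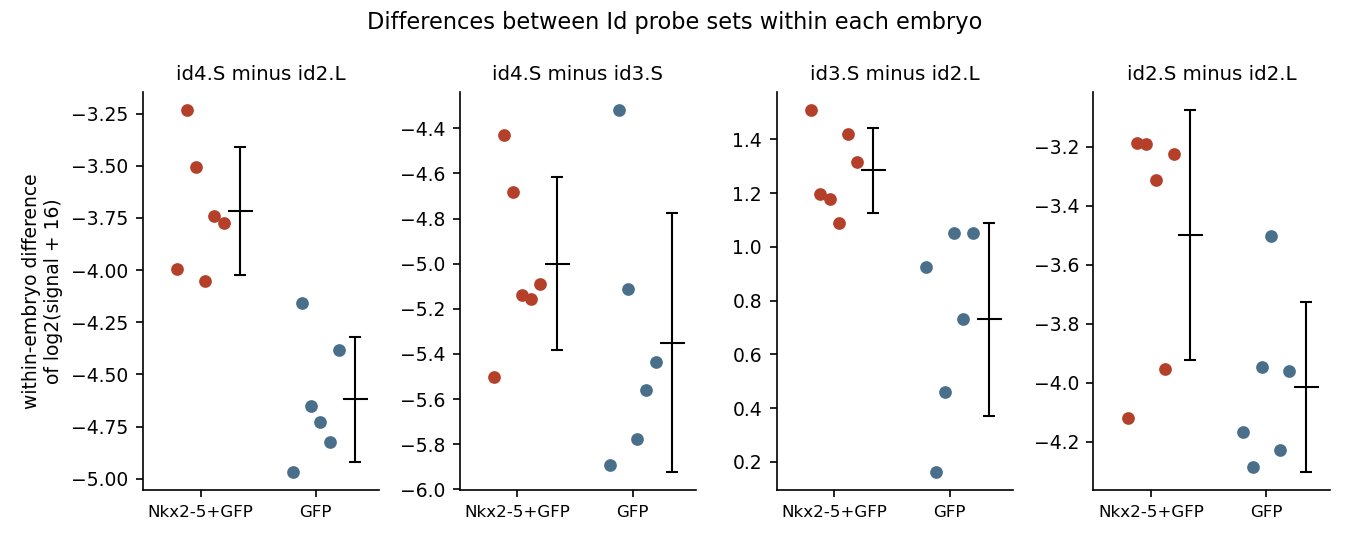
Difference of log2(signal + 16) between 2 Id probe sets within each embryo (vertical axes, which do not start at 0 and whose heights depend on the probe sets), in 6 Nkx2-5+GFP embryos (left, red) and 6 GFP embryos (right, blue), with the mean and SD in black. For id4.S minus id2.L and id3.S minus id2.L the groups do not overlap, with shifts of 0.90 and 0.55, while for id4.S minus id3.S they overlap widely.

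Whether id2.L, id3.S and id4.S varied together among embryos of a group was tested on deviations from the group means, and none of the 3 pairs passed after adjustment. After removal of group means over the 12 embryos, id3.S and id2.L had a Pearson r of 0.640 and a Spearman rho of 0.441 (permutation p = 0.0311 and 0.172, adjusted over 3 gene pairs 0.0933 and 0.514). Within Nkx2-5+GFP embryos this r was 0.889, within GFP embryos 0.446, and without the 2 embryos farthest from the median of id3.S 0.528. For id4.S and id2.L the pooled r was 0.514 and rho 0.301 (permutation p = 0.135 and 0.368, adjusted 0.203 and 0.552). Without the 2 embryos farthest from the median of id4.S, r was 0.0108. It was -0.346 within Nkx2-5+GFP embryos and 0.774 within GFP embryos. id4.S and id3.S had r and rho near 0, at 0.000675 and -0.028 (permutation p = 0.998 and 0.942, adjusted 0.998 and 0.942). Their r was -0.331 and 0.0687 within Nkx2-5+GFP and GFP embryos and 0.215 without the 2 embryos farthest from the median of id4.S. Pairs with the id3 probe sets of no named copy were not tested. The a_at probe set had a higher r with id2.L, 0.772 (rho = 0.713), and with id3.S, 0.692 (rho = 0.671). For the x_at probe set these r values were 0.353 and 0.349.

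The probe sets most like each bright Id probe set were taken by the highest r of such deviations over 12 embryos, among 5320 probe sets with 1 named gene other than an Id gene whose mean log2 value reached the median over the array. They were chosen for this likeness and carry no test. For id3.S these were ifrd1.L (r = 0.936, rho = 0.965), gabpa.S (r = 0.900, rho = 0.867) and flot2.L (r = 0.893, rho = 0.916). For id2.L they were tpd52.L (r = 0.924), chmp4b.L (r = 0.914) and tmem52.L (r = 0.885). For the a_at probe set of id3 they were 2 probe sets of klf17.L (r = 0.951 and 0.917), a Krüppel-like factor gene, and snu13.L (r = 0.915), and for its x_at probe set hspe1.L (r = 0.896), vamp1.L (r = 0.854) and sec11a.L (r = 0.852). None of these probe sets was called changed.

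The supplied gene was read as a check of the labels. The array has 2 probe sets for nkx2-5.S, which need not detect the injected mRNA. One had signals from 122 to 233 in Nkx2-5+GFP embryos and from 57.4 to 138 in GFP embryos, and rose (limma adjusted p = 0.0431). The other averaged 140.5 ± 24.8 in Nkx2-5+GFP embryos and 93.7 ± 20.7 in GFP embryos (SD, n = 6 each) and did not pass (limma adjusted p = 0.0731). Among the 6 Nkx2-5+GFP embryos, the mean log2 signal of both probe sets had correlations with the Id probe sets from r = -0.397 for the x_at probe set of id3 to r = 0.651 for id2.S. None of the 6 passed, with the lowest exact permutation p adjusted over them at 0.685 for r and 0.617 for rho.

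The array quality and the tissue were checked once. Arrays correlated with each other at up to 0.982, and the lowest median r of any array with the others was 0.972. Median signals lay between 302 and 346. Probe sets of BioB, a bacterial spike-in control, averaged 809 on the array of Nkx2-5+GFP embryo 6 against 472 to 548 on the other arrays. Marker lists of ectoderm and epidermis, neural tissue, mesoderm, organizer, endoderm and germ plasm were read against the whole-embryo label, and the lowest summed signal of any list in any embryo was 4333. The summed signal of the epidermal markers (krt12.4, itln1, grhl1, grhl3 and tfap2a) was 9243 to 18205 in Nkx2-5+GFP embryos and 5625 to 7883 in GFP embryos, and 5 of their 6 probe sets rose. The neural markers summed to 6676 to 8739 in Nkx2-5+GFP embryos and 8213 to 10461 in GFP embryos, and 1 of their 6 probe sets fell. In the mesoderm and endoderm lists 1 of 7 probe sets each rose, and in the germ plasm list 1 of 3 fell. Of all probe sets 3.12% rose and 3.26% fell in Nkx2-5+GFP embryos. After removal of group means, the epidermal sum had an r with id4.S of 0.107 and a rho of 0.203 over 12 embryos, and none of the 6 Id probe sets passed (lowest adjusted permutation p = 0.843 for r and 0.910 for rho). With group means removed, these correlations leave out the difference between the groups and cannot test the part of epidermal cells in it. The part of epidermal or neural cells in the Id differences was not tested.

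The Id genes stand downstream of BMP signalling, whose genes were read from the same fit. Over 5 lists with 76 probe sets of 45 measured genes, 5 rose, 1 fell and 70 did not pass, or 7.89% called, close to the 6.38% of all probe sets. Of the 8 probe sets for BMP ligands, 11 for receptors and 10 for Smads, 0 were called by limma, and their median log2 differences were 0.03, -0.14 and -0.18, against -0.02 for all probe sets. At an unadjusted p under 0.05 in limma, 2 ligand, 0 receptor and 1 Smad probe sets would have passed, against 3761 of all 15491 probe sets. The ligand gene bmp7.2.L averaged 11554 ± 2559 in Nkx2-5+GFP embryos and 13901 ± 1926 in GFP embryos (limma adjusted p = 0.212). The ligand gene bmp7.1.L went the other way, at 1140 ± 268 and 791 ± 139, a log2 difference of 0.51 (limma adjusted p = 0.0603). Of the 8 ligand probe sets 5 lay above 0 and 3 below. The receptor gene bmpr1a.L averaged 5665 ± 706 in Nkx2-5+GFP embryos and 5370.2 ± 717 in GFP embryos (limma adjusted p = 0.697). smad1.S, which encodes a Smad activated by BMP receptors, averaged 2011 ± 159 in Nkx2-5+GFP embryos and 2319 ± 391 in GFP embryos (SD, n = 6 each, limma adjusted p = 0.294). Its second probe set went the other way, at 733 ± 161 and 595 ± 78.7 (limma adjusted p = 0.219). The brightest Smad probe set, of smad4.L, averaged 4708 ± 659 in Nkx2-5+GFP embryos and 3848 ± 593 in GFP embryos (limma adjusted p = 0.135). Of the 10 Smad probe sets 3 lay above 0 and 7 below.

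Transcription factor genes that BMP induces were the BMP list with most calls. Of its 26 probe sets 4 rose, or 15.4%, against 3.12% of all probe sets, 0 fell and 22 did not pass, and the median log2 difference was 0.30. For the Id probe sets the median was 0.28, with 1 of 6 called. gata3.S, an ectodermal factor gene, had a lowest value of 189, a median of 230.0 and a highest value of 411 in Nkx2-5+GFP embryos, against 82.8, 126 and 139 in GFP embryos, with no embryo shared between the ranges (limma adjusted p = 0.0108). The T-box gene tbx3.S averaged 188 ± 64.9 in Nkx2-5+GFP embryos and 91.9 ± 21.3 in GFP embryos (limma adjusted p = 0.0273).

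gata2.L, a factor gene of ventral ectoderm and blood, averaged 2421 ± 237 in Nkx2-5+GFP embryos and 1612 ± 512 in GFP embryos, a log2 rise of 0.64 (limma adjusted p = 0.0472), while its second probe set did not pass at 0.71 (limma adjusted p = 0.0769). dlx3.S, a homeobox gene of epidermis, averaged 2148 ± 181 in Nkx2-5+GFP embryos and 1599.6 ± 301 in GFP embryos (limma adjusted p = 0.0363). The ventx2.1 genes, which encode homeodomain repressors of dorsal genes, did not pass, with log2 differences of 0.15 for ventx2.1.S and 0.33 for ventx2.1.L. The 4 rises became 2 or fewer without Nkx2-5+GFP embryo 1, 2, 4 or 6 or GFP embryo 1, 2, 3, 4 or 6, and 0 with the beta-actin ratio in the fit.

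Among the extracellular and membrane regulators of BMP, 1 of 21 probe sets rose and 1 fell, or 9.52% called. Of all probe sets 6.38% were called, 3.12% that rose and 3.26% that fell. dand5.S, which encodes a Cerberus-type antagonist, had a lowest value of 898, a median of 1221 and a highest value of 1355 in Nkx2-5+GFP embryos, against 1740, 1928 and 2354 in GFP embryos. Its ranges were apart, and it fell by 0.76 (log2, SE 0.11) at an adjusted p of 0.00183 by limma. grem1.L, a BMP antagonist gene, rose to between 99.4 and 174 in Nkx2-5+GFP embryos, against 56.7 to 102 in GFP embryos (limma adjusted p = 0.0441), and without Nkx2-5+GFP embryo 1, 2, 3, 4 or 6 or GFP embryo 2, 3, 4 or 6 no probe set of this list was called higher. The antagonist gene chrd.1.S did not pass, at 4022 ± 415 in Nkx2-5+GFP embryos and 3097 ± 567 in GFP embryos (limma adjusted p = 0.056).

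The bHLH factors on which Id proteins act were taken as 3 lists with 59 probe sets of 31 measured genes. Of these 7 rose, 0 fell and 52 did not pass, or 11.9% called, against 6.38% of all probe sets. Of the 9 probe sets for E proteins, the direct partners of Id proteins, 0 were called by limma, and the median log2 difference was 0.05. An unadjusted p under 0.05 in limma was found for 0 of these 9 and for 3761 of all 15491 probe sets. tcf3.L averaged 9531 ± 1230 in Nkx2-5+GFP embryos and 8788 ± 741 in GFP embryos (SD, n = 6 each), a log2 difference of 0.11 with a 95% interval from -0.08 to 0.30 (limma adjusted p = 0.481).

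Tissue bHLH factors, which bind DNA together with E proteins, had 3 of 25 probe sets that rose and 0 that fell, against 3.12% of all probe sets that rose. myf5.L, which directs cells to muscle, had a lowest value of 774, a median of 1031 and a highest value of 1393 in Nkx2-5+GFP embryos, against 265, 467 and 691 in GFP embryos, without overlap (limma adjusted p = 0.00664). myod1.L averaged 254 ± 80.9 in Nkx2-5+GFP embryos and 133 ± 37.5 in GFP embryos (limma adjusted p = 0.0359), and msgn1.L, which acts in presomitic mesoderm, averaged 1029.8 ± 387 in Nkx2-5+GFP embryos and 517 ± 271 in GFP embryos (limma adjusted p = 0.0426). These 3 rises became 1 without Nkx2-5+GFP embryo 1, 2, 4 or 6 or GFP embryo 2, 3, 4 or 6, 2 without Nkx2-5+GFP embryo 3, and 5 without GFP embryo 5. They became 1 with the beta-actin ratio in the fit and 2 without GFP embryos 1 and 4. The S copy myod1.S did not pass, at a log2 difference of 0.67 (limma adjusted p = 0.0643).

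The hes and hey genes, which encode bHLH repressors downstream of Notch and other signals, had 4 of 25 probe sets that rose and 0 that fell, against 3.12% of all probe sets that rose. Of these 4 calls 2 were probe sets of 1 gene, hes5.5.S, and the list's median log2 difference was 0.36. hes5.5.S had a lowest value of 115, a median of 172 and a highest value of 255 in Nkx2-5+GFP embryos, against 48.5, 72.8 and 85.0 in GFP embryos, without overlap (limma adjusted p = 0.00349). Of the 3 probe sets for hes5.5.S 2 rose, and the remaining one differed by 0.05 (limma adjusted p = 0.911). hes1.S averaged 231 ± 49.7 in Nkx2-5+GFP embryos and 131 ± 29.4 in GFP embryos (limma adjusted p = 0.0245), and hes2.L rose by 0.61 (limma adjusted p = 0.0465). The 4 rises became 2 or fewer without Nkx2-5+GFP embryo 1, 2 or 4 or GFP embryo 1, 3, 4 or 6, and 1 with the beta-actin ratio in the fit.

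**Figure D5:**
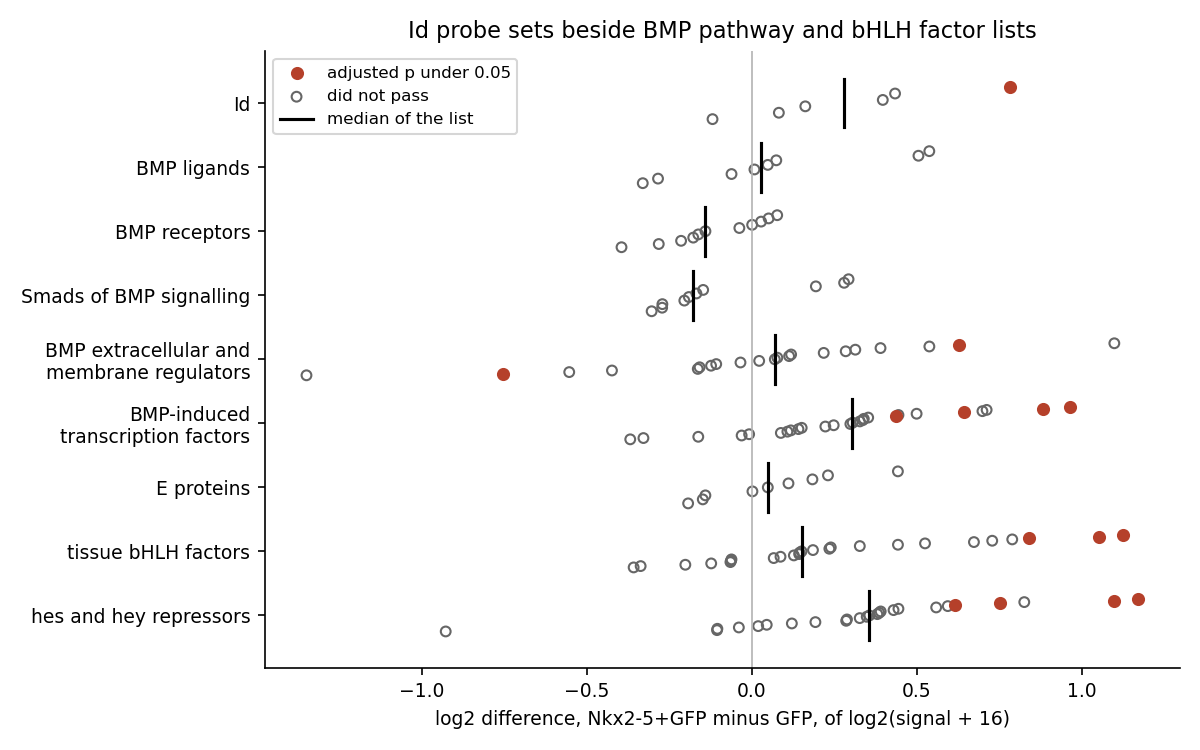
Log2 difference, Nkx2-5+GFP minus GFP (horizontal axis), of each probe set of the Id genes, the 5 BMP lists and the 3 bHLH lists (rows), with the median of each list as a black bar and probe sets with a limma adjusted p under 0.05 filled. The Id median of 0.28 lies near those of BMP-induced transcription factors, at 0.30, and of hes and hey repressors, at 0.36. Receptors and Smads of BMP signalling have medians of -0.14 and -0.18 and no filled points.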

How the data were processed

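The authors deposited probe set intensity values, here called signals. Per the submitters' processing notes MAS5 made them, and neither its version nor a scaling target is recorded there, and detection calls were not used here. Per the labels' protocols, 100 ng of RNA of each embryo was labelled with biotin in 2 cycles. A mean trimmed by 2% at each end was 1000.1 on every array. The table held 15611 probe sets, of which 120 controls were left out of the tests. The number of arrays limits the precision.

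Gene names come from the platform annotation, updated by gene number with a RefSeq table of Xenopus_laevis_v10.1. One gene was named for 9304 probe sets, and the gene number of both id3 probe sets with no copy named was not found in that table.

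Groups were compared with limma 3.58.1 in R 4.3.3 (lmFit, eBayes with an intensity trend, 10 residual degrees of freedom) on log2(signal + 16), which understates changes of dim probe sets, adjusted by Benjamini-Hochberg across all tested probe sets. Intervals are 95%. Exact permutation tests used all 924 assignments and their intervals invert the test. Correlations were permuted within groups 100000 times. The fit was tested on simulated data, where it missed many changes of the size of the Id differences, so a probe set that did not pass may still differ. A first limit on recovery was not met and was then lowered. Members and lists were chosen with earlier results of these data known. The text names all Id probe sets and, from each list, up to 4 called genes by p and up to 2 bright ones that did not pass. A few further probe sets are named where they limit what is said of a list. The motifs meant to be searched in promoters were not searched, since no sequence was used here.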

Additional observations from a re-analysis of the deposited data

Results flagged for a closer look

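Each group of 6 embryos was searched for 1 embryo far from the other 5, for the Id probe sets and the genes named from the lists. Chance alone marks about 1 in 20 groups, 68 groups were looked at, and 2 stood out, no more than chance alone would mark. For id2.S, GFP embryo 6 had a signal of 179 against 145 to 154 in the other GFP embryos, a gap of 0.734 of the group's range on the log2 scale. For the BMP-like ligand gene admp.S, Nkx2-5+GFP embryo 6 had 2456 against 3496 to 4170 in the other Nkx2-5+GFP embryos, a gap of 0.667 of the range.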

How the results depend on the processing

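Over the alternatives set out at the start, id4.S kept its direction in all 20 that tested it and its call in 13, with limma's adjusted p from 0.0156 to 0.0699, and the 7 losses each came from leaving out 1 embryo. Its difference was 0.88 with a pseudocount of 1 and 0.58 with a pseudocount of 64. The count of changed Id probe sets, 1, became 0 without the dimmer probe sets, which leaves id4.S and id2.S untested, and was 0 to 1 with 1 embryo left out. A replicate block gave 2, since id3.S passed too (limma adjusted p = 0.0197), and 779 calls over all probe sets, against 988. Whether the numbers pair the embryos is not known. Same-numbered embryos deviated together at r from -0.147 to 0.131, which cannot settle it. The GFP embryo that deviated most alike had the same number for Nkx2-5+GFP embryos 2, 3 and 6, and another number for embryos 1, 4 and 5. The a_at probe set of id3 differed by -0.0044 to 0.19 with 1 embryo left out and changed sign without Nkx2-5+GFP embryo 4.

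With 1 embryo left out, 285 to 1485 of all probe sets were called, 2 to 8 of the BMP lists (6 in all embryos), 2 to 10 of the bHLH lists (7 in all embryos) and 2 to 3 of the Id pairs (3 in all embryos). eBayes without the trend called 437 of all and 3 of 59 bHLH probe sets. Without the dimmer probe sets only 16 bHLH probe sets were tested, and 3 of these were called, against 7 of 59 in the main fit. Apart from the smaller number of probe sets tested in that setting, the cause of these changes was not tested.

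Settings added after seeing the data were the beta-actin ratio in the fit, which left 160 calls in all, 0 Id, 2 BMP and 2 bHLH calls, and leaving out GFP embryos 1 and 4, which left 308 in all, 0 Id and 3 bHLH calls. Dim probe sets such as id4.S and id2.S lie nearer the background of the array, and no detection calls were at hand.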
